A study of Mus musculus with 2 samples.

Results

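Muscle beside a mouse tibia fracture was examined in the spots that carried the most transcripts of *Myh3*, the embryonic myosin heavy chain, and *Myh8*, the perinatal one. The data were 2 Visium sections, in which pairs of probes that bind fixed RNA are read out from a slide printed with a grid of position barcodes, as unique molecular identifiers (UMIs) per spot. Of 6380 spots, 5920 held at least 1000 UMIs and were kept, and 296 of them, 5%, are called embryonic myosin spots here. They were chosen by the summed level of *Myh3* and *Myh8*, as the top 5% of the kept spots of both sections together. Levels are in CPM, the UMIs of a gene relative to all UMIs of the spot or of the pooled spots, scaled to 1000000. Section 1 held 95 of them and section 2 held 201. The control callus was from a mouse with 1 wild-type and 1 floxed *Nf1* allele (*Nf1*[+/flox]) and no Cre, and the Nf1Postn callus from a mouse with Postn-cre, 1 floxed and 1 null allele (Postn-cre;Nf1[flox/-]), so a floxed allele was common to both. Both animals were females of 8 weeks whose distal tibia was cut and stabilized with an intramedullary pin, and calluses were taken 10 days later. Postn-cre is active in the periosteum and is not a muscle driver, whereas the null allele is carried by all cells of the Nf1Postn mouse. The design text deposited with the data describes the pair of calluses as embedded in common, with both sections cut through them, whereas the sample labels call the sections biological replicates. The number of mice is not stated, and the sections were treated here as cuts of the same calluses, with 1 mouse per genotype, so a difference between genotypes cannot be told apart from one between 2 mice or between the tissue each cut included. The comparisons were therefore made without a test, and a gene was counted as higher or lower only where its ratio was at least 2-fold the same way in both sections.

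The embryonic myosin spots held a median of 3857 UMIs (range, 1021 to 23407), with 5586 in the control and 3586 in the Nf1Postn spots, against 6615 and 2888 over all kept spots of each genotype. In sum they held 67114 and 410900 UMIs in the control tissue of sections 1 and 2 and 283080 and 745316 UMIs in the Nf1Postn tissue, so the control spots of section 1 were the least well measured. Grid barcodes used in both sections numbered 2711, which is a property of the slide and does not mean shared cells. A spot covers several cells, and a lower level in it cannot be told apart between fewer cells of a type and less RNA per cell. Intervals given below are 95% Poisson (levels, ratios) or Clopper-Pearson (shares) intervals, which cover counting error only.

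In muscle repair, satellite cells marked by *Pax7* leave quiescence, switch on the myogenic regulators and then *Myog* (myogenin), and fuse through the membrane proteins myomaker and myomixer (*Mymk*, *Mymx*). The young fibers assemble a sarcomere from developmental isoforms, among them *Myh3*, *Myh8*, the cardiac-type troponin T *Tnnt2*, the embryonic light chain *Myl4* and the slow troponin I *Tnni1*, which adult fast fibers largely replace with the *Myh4*, *Myh1* and *Myh2* myosins and their fast partners. The fetal acetylcholine receptor likewise holds a gamma subunit (*Chrng*) before the epsilon subunit (*Chrne*) takes its place.

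The rule genes were sparse. *Myh3* (chr11:66969126-66993118, mm39) and *Myh8* (chr11:67167950-67199461) lie in 1 myosin gene cluster, and counts of such close relatives depend on how well their probes tell them apart. Together they were seen in 1152 (19.5%) of the kept spots, and the embryonic myosin spots held 360 of 689 *Myh3* UMIs (52.2%) and 906 of 1727 *Myh8* UMIs (52.5%). *Myh3* stood at 268 and 365 CPM in the control spots of sections 1 and 2 and 237 and 168 CPM in the Nf1Postn spots. *Myh8* stood at 566 and 469.7 CPM in the control spots of sections 1 and 2 and 639 and 661 CPM in the Nf1Postn spots. These levels describe the choice of spots and support nothing.

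Many embryonic myosin spots carried few of these molecules. 85 (28.7%) held 1 UMI of the pair, 60 held 2 and 151 (51.0%) held 3 or more, with a maximum of 35. *Myh8* without *Myh3* was seen in 154 spots, both in 103 and *Myh3* without *Myh8* in 39. Among the 151 spots with 3 or more UMIs, 92 held both, 51 (33.8%) held *Myh8* without *Myh3* and 8 held *Myh3* without *Myh8*. A spot with 1 UMI can show only 1 isoform. At the border, the last spots taken in had 458.1 CPM (6 UMIs of 13098) and 458.2 CPM (1 of 2182.5), and the first left out had 455.5 CPM (4 of 8781.5) and 454.8 CPM (1 of 2199). A single UMI was thus enough up to a depth of 2183 UMIs, a depth that 238 (7.10%) of the kept control spots and 795 (30.9%) of the kept Nf1Postn spots did not exceed.

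Embryonic myosin spots took a larger share of the Nf1Postn tissue in both sections. In the control tissue they were 14 of 1655 spots (0.846%; 0.463 to 1.42) in section 1 and 57 of 1695 (3.36%; 2.56 to 4.34) in section 2. In the Nf1Postn tissue they were 81 of 1126 (7.19%; 5.75 to 8.86) and 143 of 1443 (9.91%; 8.42 to 11.6). The Nf1Postn share was 8.50 times the control share in section 1 and 2.95 times in section 2, and the control shares of the 2 sections differed from each other by more than their counting intervals. 1 further spot had no genotype. Because depth differed between the genotypes, the ranking was repeated after thinning every spot to 1000 UMIs, which gave 0.846% and 3.89% of control and 6.93% and 9.49% of Nf1Postn spots. The cutoff was then 1000 CPM, a single UMI, and ties were ordered by the unthinned level. The repeat therefore does not fully remove depth from the choice. Spots that also held at least 3 UMIs were 0.423% and 2.01% of control and 2.66% and 5.54% of Nf1Postn tissue. A ranking by *Myh3* alone narrowed the gap, to 1.69% and 5.90% of control and 6.04% and 6.93% of Nf1Postn spots, an overall ratio of 1.71 in place of 4.11, and in section 2 the intervals of the 2 genotypes then overlapped.

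**Figure D1:**
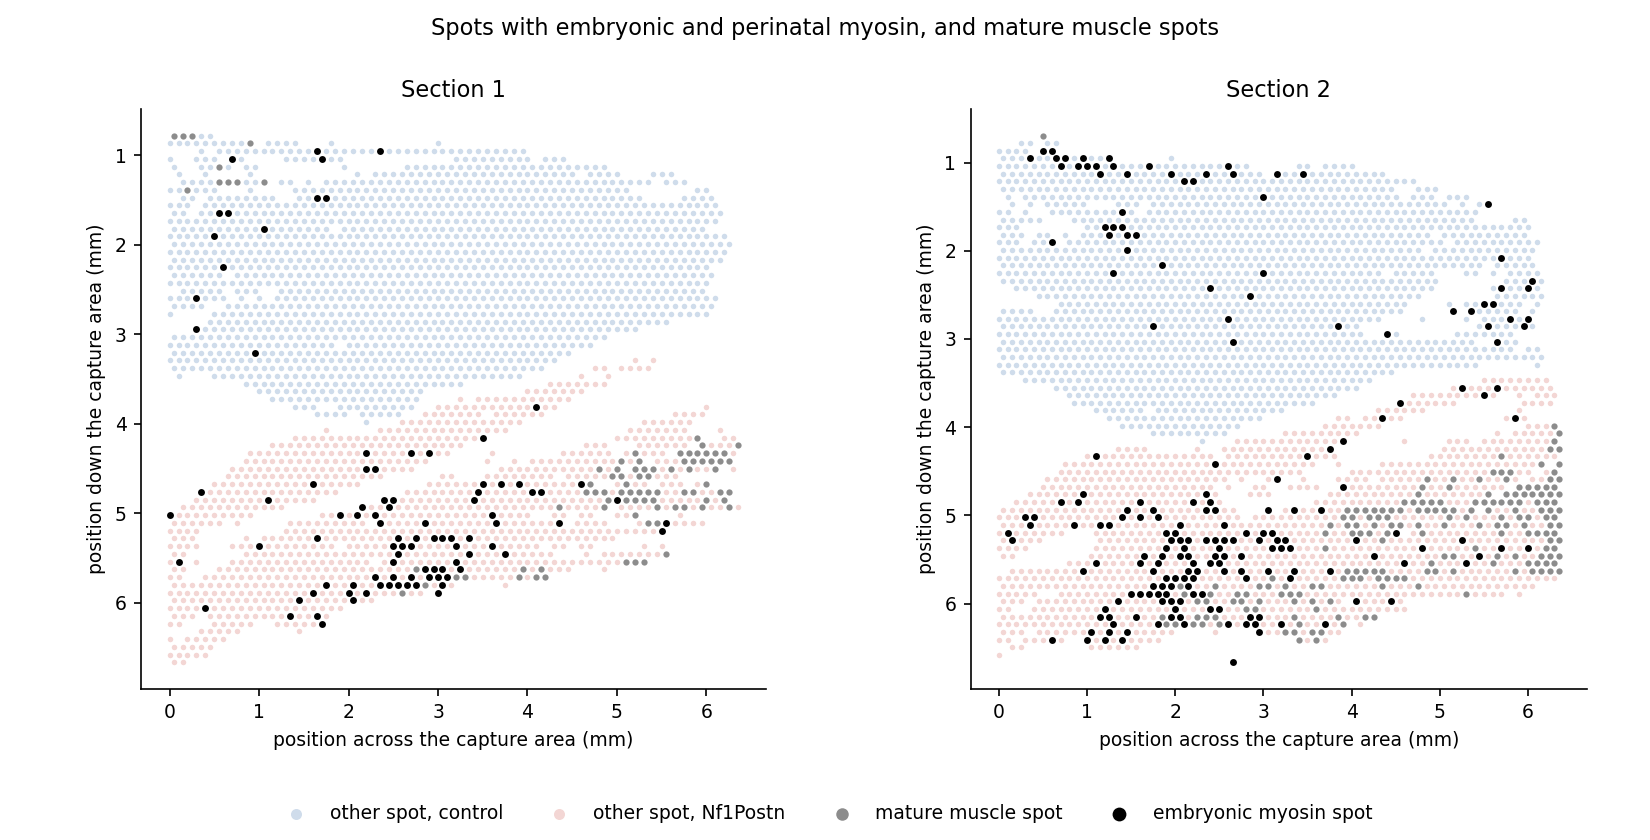
Position of every kept spot on the capture area of each section (both axes in mm), with embryonic myosin spots in black, mature muscle spots in gray and other spots in pale blue (control) or pale red (Nf1Postn). In the Nf1Postn tissue most black spots lie between about the middle and the left of the lower limb piece, to the left of the gray mature muscle, and in the control tissue of section 2 they line the upper and right edges.

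Part of the spots gathered in patches. Of the grid neighbors of embryonic myosin spots, 22.3% were embryonic myosin spots too (19.6% in section 1, 23.6% in section 2), whereas they made up 4.11% of the neighbors of other spots, and mature muscle spots made up 3.35% of their neighbors. The share was 13.7% in the control tissue, against 1.73% of the neighbors of other spots there, and 24.8% in the Nf1Postn tissue, where the spots were denser, against 8.07%. There were 159 separate patches, of which 114 were single spots, and 106 spots (35.8%) lay in patches of at least 5. Of the control spots 52.1% were alone, against 33.9% of the Nf1Postn spots. The control tissue of section 1 had no patch over 2 spots. The largest patch, in the Nf1Postn tissue of section 2, held 38 spots over 800 by 1126 µm, and the next held 10. The map shows this patch beside the mature muscle of the same callus. Along the width of the capture area, embryonic myosin spots of the Nf1Postn tissue had a median position of 2.7 mm in section 1 and 2.2 mm in section 2, and mature muscle spots of 5.33 and 4.85 mm. The distance to the nearest mature muscle spot had a median of 458 and 436 µm in the Nf1Postn tissue of sections 1 and 2, against 964 and 458 µm for other spots, so in section 2 the embryonic myosin spots lay hardly nearer to mature muscle than other spots did.

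Embryonic myosin was most frequent where adult myosin was intermediate, between 20000 and 60000 CPM. Mature muscle spots were defined as the top 5% of kept spots by summed CPM of the adult myosins *Myh4*, *Myh1* and *Myh2* (from 69757 CPM) that were not embryonic myosin spots, which left 280 spots, 269 of them in the Nf1Postn tissue and 11 in the control, and 16 embryonic myosin spots also passed this limit. Adult myosin transcripts were seen in nearly every spot, and how far they had spread from the fibers was not tested. From 1000 to 5000 CPM of adult myosin, 0.381% of spots were embryonic myosin spots. Over both sections the share was 4.71% in the bin up to 20000 CPM and 16.9% in the bin up to 40000, and was 10.5% in the bin up to 60000 and 4.79% in the bin up to 80000. The peak was that of section 2, where 22.5% (18.5 to 27.0) of spots at 20000 to 40000 and 9.47% at 40000 to 60000 CPM were embryonic myosin spots. In section 1 the shares of these bins were 10.4% (7.39 to 14.1) and 12.9% (7.96 to 19.4), with overlapping intervals. The genes that did not enter the rule followed a like course over all kept spots. *Tnnt2* stood at 10.1, then 50.8, 151, 109 and 37.4 CPM in these bins and *Myog* at 5.05, 30.6, 75.9, 44.9 and 39.6 CPM. *Myl4* and *Tnni1* peaked in the same bin over both sections, at 304 and 186 CPM. In section 1 alone *Tnnt2* (105 CPM) and *Myl4* (178 CPM) were highest from 40000 to 60000 CPM and *Tnni1* (138 CPM) and *Myog* (74.8 CPM) from 20000 to 40000. Over both sections, at 20000 to 40000 CPM the share was 13.1% (8.65 to 18.7) of control and 18.2% (15.0 to 21.7) of Nf1Postn spots, at 40000 to 60000 it was 8.33% and 10.8%, at 5000 to 20000 it was 3.06% (2.10 to 4.29) and 7.37% (5.49 to 9.66), and at 1000 to 5000 it was 0.115% (0.0139 to 0.415) and 1.65% (0.607 to 3.55). At 60000 to 80000 the shares were 7.14% (1.98 to 17.3) and 4.55% (2.93 to 6.69), with 3 of only 7 control spots in section 2 and 2.04% against 5.84% in section 1. The intervals cover counting error only, and since spots of 1 callus are not independent they decide no difference between genotypes in any bin. The bin from 20000 to 40000 CPM held 191 control and 550 Nf1Postn spots. The part of adult myosin content in the overall ratio of shares was not tested.

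**Figure D2:**
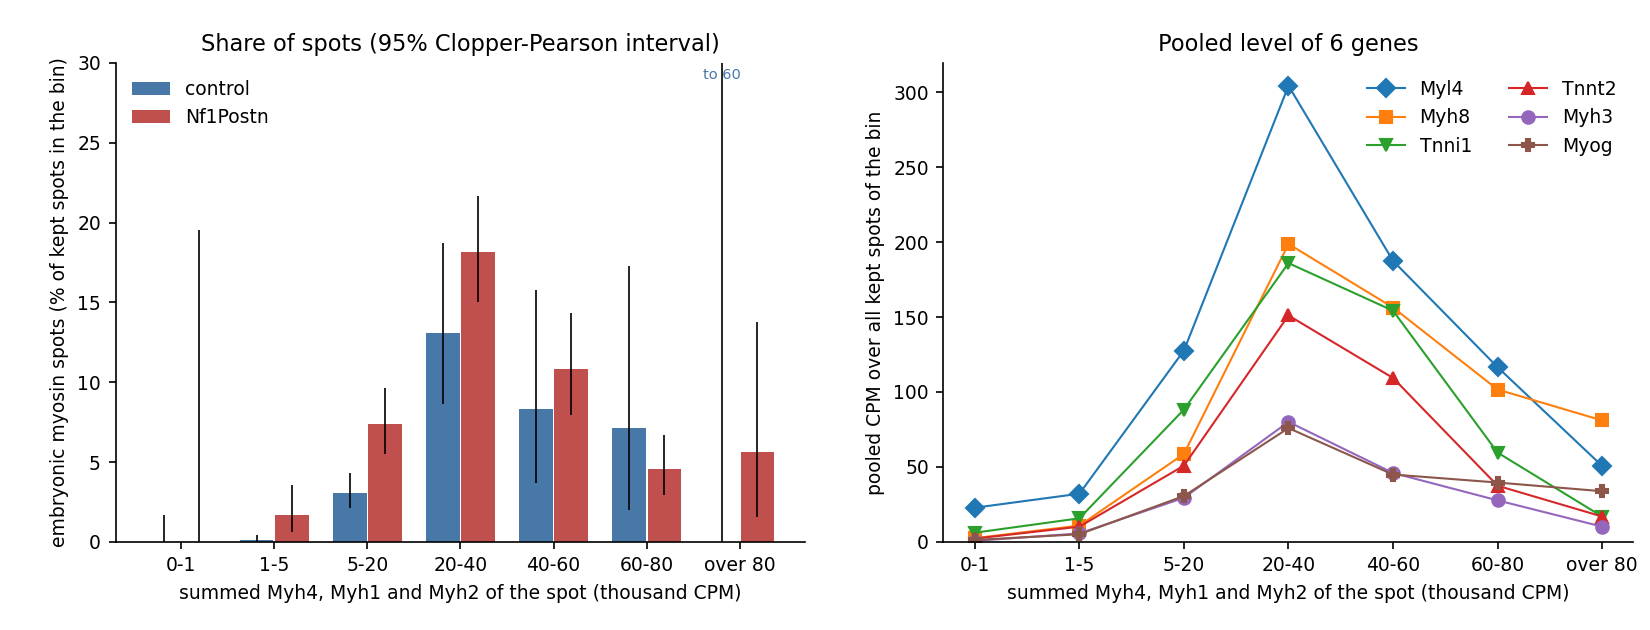
Left, share of kept spots that were embryonic myosin spots (%) in bins of summed adult myosin (CPM divided by 1000), for control and Nf1Postn spots of both sections with 95% intervals; right, pooled level (CPM) of 6 genes over all kept spots of each bin. Over both sections, share and levels are highest at 20000 to 40000 CPM, with 16.9% of spots, and lower on both sides.

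Developmental sarcomere genes outside the rule were abundant in the embryonic myosin spots of every section and genotype. *Tnnt2* (chr1:135764092-135779999) stood at 343 and 341 CPM in the control spots of sections 1 and 2 and 177 and 266 CPM in the Nf1Postn spots, against 18.9 and 18.3 CPM in the Nf1Postn mature muscle spots and 7.76 to 53.6 CPM in the other spots. *Myl4* (chr11:104441489-104486580) stood at 1281 and 635 CPM in the control spots of sections 1 and 2 and 452 and 706 CPM in the Nf1Postn spots, against 6.3 and 90.4 CPM in the Nf1Postn mature muscle and 31.5 to 131 CPM elsewhere. In both genes all 4 values for embryonic myosin spots lay above those of the mature muscle and other spots. Yet single spots varied: *Tnnt2* was seen in 35.7% and 56.1% of the control and 29.6% and 39.2% of the Nf1Postn spots. In the control tissue of section 1 the pooled *Tnnt2* and *Myl4* values lay above the upper quartiles of the 14 spots (273 and 301 CPM). The highest values in a spot there were 1764 and 7643 CPM, so few spots carried the pooled values. *Casq2* (chr3:101993731-102053831), the calsequestrin of cardiac and slow muscle that binds calcium in the sarcoplasmic reticulum, stood at 134 and 82.7 CPM in the control spots of sections 1 and 2 and 81.2 and 117 CPM in the Nf1Postn spots, against 56.7 and 47.7 CPM in the Nf1Postn mature muscle. In the control mature muscle it was 30.1 CPM over the 10 spots of section 1 and, from 1 UMI in the single spot of section 2, 151 CPM, which is above all 4 values. Its margin over mature muscle was small, 1.06 on the log2 scale, and it was not counted there because section 1 did not reach 50 UMIs. *Actc1* was not analysed here.

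Slow troponin I was likewise abundant. *Tnni1* (chr1:135707172-135738728), made in developing and slow fibers, stood at 819.5 and 555 CPM in the control spots of sections 1 and 2 and 254 and 258 CPM in the Nf1Postn spots. The Nf1Postn mature muscle held 18.9 and 33 CPM and the other spots 17.1 to 64.6 CPM. The pooled control values exceeded the Nf1Postn values in both sections, and all 4 exceeded the other groups. In section 1 the pooled control value lay above the upper quartile of its 14 spots (589 CPM). The highest of these spots reached 3528 CPM and the median was 220 CPM, so few spots carried that value. Of the other slow genes, *Tnnt1*, the slow troponin T, stood 0.54 on the log2 scale over mature muscle and 1.84 over other spots, whereas the slow myosin *Myh7* (-2.64) and the slow light chain *Myl2* (-2.11) were lower than in mature muscle without reaching 50 UMIs a section. The slow fiber list had 3 of 8 genes above that minimum against mature muscle, with *Tnni1* higher and none lower, and 23.3% of all genes compared were higher there.

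**Figure D3:**
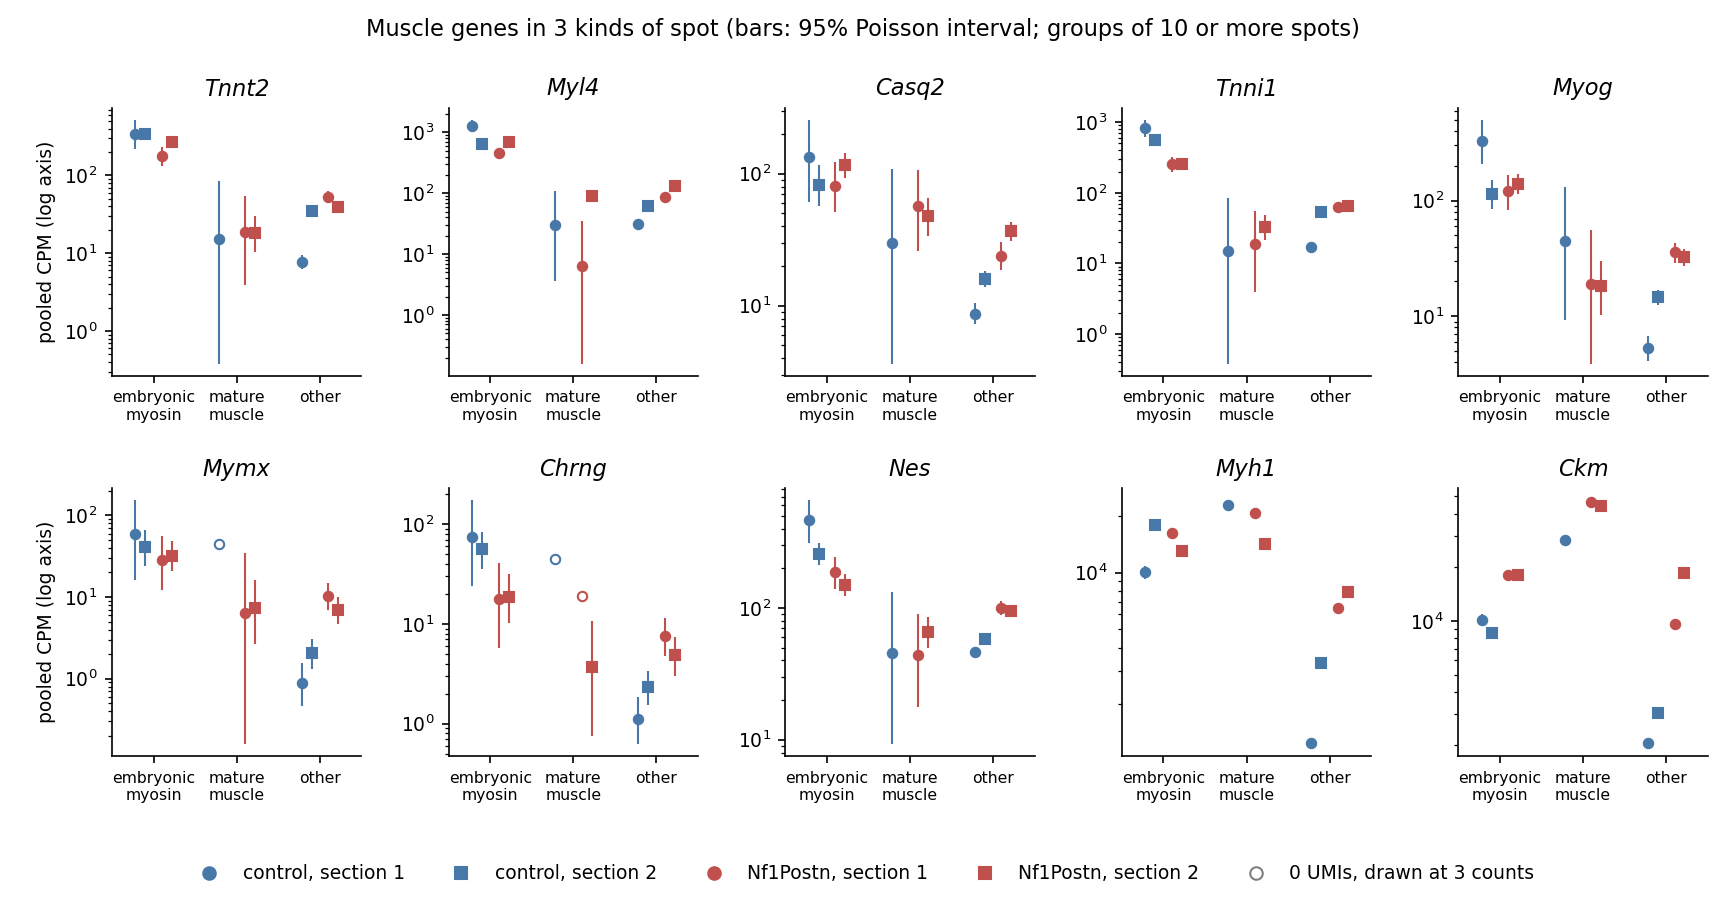
Pooled CPM (log axis) of 10 muscle genes in embryonic myosin, mature muscle and other spots, by section (circle or square) and genotype (blue or red), with 95% Poisson intervals; groups of under 10 spots are not drawn and open symbols mark 0 UMIs, drawn at 3 counts. *Tnnt2*, *Myl4*, *Tnni1* and *Myog* are higher in embryonic myosin spots than in the other 2 kinds, and *Ckm* is highest in mature muscle.

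The regulators of differentiation and fusion came next. *Myog* (chr1:134217727-134220287) stood at 328 and 114 CPM in the control spots of sections 1 and 2 and 120.1 and 139.5 CPM in the Nf1Postn spots, against 18.9 and 18.3 CPM in the Nf1Postn mature muscle and 5.3 to 35.6 CPM in the other spots, again without overlap between these groups. The single control spot of mature muscle in section 2, which these values leave out, held 1 UMI of *Myog*, and so 151 CPM. Of the 14 control embryonic myosin spots of section 1, 21.4% held *Myog*, with up to 1529 CPM in a spot, so the 328 CPM came from few spots. *Myf6*, the regulator that persists in adult fibers, was -0.78 on the log2 scale against mature muscle and 1.67 against other spots. *Pax7* and *Myf5*, which mark satellite cells, reached only 14 and 6 UMIs over all 296 spots, and the cadherin *Cdh15* and *Myod1* were not analysed here, so these defining markers were too thinly sampled to compare. Of the satellite cell surface list, 0 of 2 genes that passed were higher than in mature muscle and 3 of 7 higher than in other spots, namely the integrin *Itga7* (1.3), which fibers also make, *Fgfr4* (1.42) and *Chodl* (1.5). Within the control tissue 2 of 5 were higher, beside 4.58% of all genes, and within the Nf1Postn tissue 0 of 4, beside 0.164%. Of the satellite cell markers 1 of 2, again *Chodl*, was higher than in other spots, beside 2.35% of all genes. Of the 8 myogenic factors in the tables, 4 passed the count minimum against mature muscle, where *Myog* was higher, and 6 against other spots, where *Myog* and *Myf6* were higher, beside 23.3% and 2.35% of all genes compared. With factors by trimmed mean of M values or DESeq2 size factors, 1 of the 4 was lower than in mature muscle, and more of all genes were lower too.

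The fusion proteins were seen at low counts. *Mymx* stood at 59.6 and 41.4 CPM in the control spots of sections 1 and 2 and 28.3 and 32.2 CPM in the Nf1Postn spots, in all 53 UMIs, against 6.3 and 7.33 CPM in mature muscle and 0.895 to 10.4 CPM in other spots. *Mymk* gave 23 UMIs over all the embryonic myosin spots, 15.3 CPM, against 1.9 CPM from 2 UMIs in mature muscle, and its direction turned when section 1 was used alone. None of the 9 fusion genes reached 50 UMIs a section against mature muscle, although 9 of 9 ratios were above 0 (median log2, 1.3), beside a median of 0.39 over all genes compared. Against other spots, where 2.35% of all genes were higher, 8 passed, and *Mymx* (3.56 (3.05 to 4.06)) and the caveolin of muscle, *Cav3* (2.29), were higher.

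The fetal acetylcholine receptor subunit *Chrng* stood at 74.5 and 56 CPM in the control spots of sections 1 and 2 and 17.7 and 18.8 CPM in the Nf1Postn spots, against 0 and 3.67 CPM in mature muscle and 1.12 to 7.61 CPM elsewhere. The adult subunit *Chrne* differed from mature muscle by 0.31 on the log2 scale, 1.89 and -0.49 in the 2 sections, so its direction was not shared. Against other spots, where 2.35% of all genes compared were higher and 2.16% lower, 6 of 9 neuromuscular junction genes that passed the minimum were higher and 1 lower (median log2, 1.84), with 2.29 for *Chrna1*, 1.88 for *Chrnb1* and 2.24 for *Chrnd*. These 3 encode the receptor subunits shared by its fetal and adult forms. Within the control tissue 4 of 6 junction genes were higher, beside 4.58% of all genes, and within the Nf1Postn tissue 0 of 7 (median, 0.52), where only 0.164% of all genes were higher.

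Against mature muscle, 429 of the 1839 genes that reached 50 UMIs per section were higher in the embryonic myosin spots (23.3%) and 108 were lower (5.87%), with a median log2 ratio of 0.39 over all genes compared. Mature muscle spots are dominated by a few fiber transcripts, and the totals carry that weight: factors by trimmed mean of M values moved all ratios by -0.66, which left 144 genes higher and 371 lower, and DESeq2 size factors moved them by -0.62, for 162 and 345. Genes within these amounts above 0, such as *Tnnt1*, change side under those factors. The 2 rule genes aside, the largest ratios were those of *Tnnt2* (3.91 (3.25 to 4.66)), the WNT receptor *Fzd1* (3.63), *Tnni1* (3.62 (3.10 to 4.19)), the matricellular protein *Ccn3* (3.62), the secreted WNT modulator *Sfrp2* (3.27), *Myl4* (3.18 (2.84 to 3.53)), the zinc finger factor *Plagl1* (3.00) and the growth factor *Igf1* (2.99). Of these only *Tnnt2*, *Tnni1* and *Myl4* are sarcomere genes. Of the 280 mature muscle spots 269 were Nf1Postn. Within the embryonic myosin spots *Sfrp2* (-2.67) and *Tnni1* (-1.21) were lower in Nf1Postn than in control spots.

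Adult fast fiber genes were mostly lower. The arrestin-like *Arrdc2* (-2.87) had the lowest ratio, followed by the peptidylarginine deiminase *Padi2* (-2.36), the sodium channel subunit *Scn4b* (-2.11), the tubulin *Tuba8* (-2.03), the glycogen-targeting phosphatase subunit *Ppp1r3c* (-2.02), the kinases *Mylk4* (-1.99) and *Wnk2* (-1.97), the acetyl-CoA carboxylase *Acacb* (-1.96), the mitochondrial creatine kinase *Ckmt2* (-1.95) and the adenylosuccinate synthase *Adssl1* (-1.84). Of 13 adult fast fiber genes, 9 were lower and none higher, with a median of -1.15 beside 0.39 over all genes, and the list includes the myosins that defined mature muscle. With Nf1Postn spots alone, where 5.26% of genes were lower, 5 of the 13 were (median, -1.01). Of 11 sarcomere genes shared by all fibers, 4 were lower (median, -0.78), and of 9 energy genes 7 were lower (median, -1.31), with *Ckm* at -1.52. In the Nf1Postn spots these counts were 3 and 6. With factors by trimmed mean of M values or DESeq2 size factors, 12 of 13 fast fiber, 10 of 11 all-fiber (medians, -1.44 and -1.40) and 9 of 9 energy genes were lower. The factors by trimmed mean of M values also made 371 of all 1839 genes lower, against 108 (5.87%) at library totals. *Myh4* was lower by more than 2-fold (-1.64), *Myh2* stood at -0.85 and *Myh1* at -0.08, with -0.51 and 0.06 in the 2 sections. Mature muscle was chosen by the sum of these 3 myosins, so their ratios are a description.

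Growth factor and matrix genes were mostly higher than in mature muscle at library totals, in a comparison where 23.3% of all genes were. Of 5 fiber repair genes that passed, 2 were higher, among them the intermediate filament nestin (*Nes*), at 462 and 258 CPM in the control spots of sections 1 and 2 and 187 and 150.3 CPM in the Nf1Postn spots against 44.1 and 66 CPM in mature muscle. *Ankrd1*, a stress-responsive sarcomere protein, had a larger ratio (3.74) with too few UMIs to be counted. Of 4 growth factor genes that passed, *Igf1*, *Igf2* (1.52) and the preadipocyte and myoblast surface factor *Dlk1* (2.07) were higher, and myostatin (*Mstn*, -2.06), the inhibitor of muscle growth, was below the minimum. The cell cycle inhibitors *Cdkn1a* (1.5) and *Cdkn1c* (1.81), which are switched on when myoblasts stop dividing, were both higher and were the only cell cycle genes that passed, and the proliferation marker *Mki67* (1.92) did not. All 7 genes of the basement membrane and early matrix list that passed were higher (median, 1.53), with fibronectin (*Fn1*) at 1.35 and the collagen *Col4a1* at 1.44. With factors by trimmed mean of M values or DESeq2 size factors, 3 of the 7 matrix genes were counted (medians, 0.86 and 0.91), 2 of the 4 growth factor genes, 1 of the 2 cell cycle genes and 1 of the 5 repair genes. These factors moved all ratios by -0.66 and -0.62 and left fewer of all genes higher, so the 23.3% belongs to library totals.

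Markers of some cells that are not muscle moved with these ratios, in which 23.3% of all genes were higher. Of the markers that passed, none was counted for mural cells (0 of 3), Schwann cells (0 of 3), chondrocytes (0 of 2) or adipocytes (0 of 1). At library totals 3 of 4 osteoblast, 1 of 2 endothelial, 1 of 2 erythroid, 1 of 2 tendon and 1 of 1 granulocyte markers were higher. With either set of factors only the endothelial one of these was. Summed fibroblast markers stood at 28489 and 32399.6 CPM in the control spots of sections 1 and 2 and 22591 and 24158 CPM in the Nf1Postn spots, against 6334 and 6615 CPM in the Nf1Postn mature muscle spots, and 6 of 6 that passed were higher in the embryonic myosin spots (median log2, 2.03; most abundant gene, *Col1a1*). Macrophage markers stood at 1207 and 1158 CPM in the control spots of sections 1 and 2 and 918 and 963 CPM in the Nf1Postn spots, against 264 and 266 CPM in the Nf1Postn mature muscle spots, with 2 of 2 higher and *C1qa* most abundant. Osteoclast markers stood at 1997 and 3091 CPM in the control spots of sections 1 and 2 and 2233 and 1277 CPM in the Nf1Postn spots, against 699 and 578 CPM in the Nf1Postn mature muscle spots, with 3 of 3 higher over both genotypes at library totals and with DESeq2 size factors and 0 of 3 with factors by trimmed mean of M values, and *Ctsk* was the most abundant. Their part in the ratios against mature muscle was not tested directly. The heart markers *Myh6*, *Nppa* and *Tnni3* gave 1, 1 and 23 UMIs over all embryonic myosin spots, and none in mature muscle. *Tnni3*, the cardiac troponin I, stood at 15.3 CPM, and in the control tissue it was counted as higher than in other spots (1.71 (0.73 to 2.55), from 12 UMIs).

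Against the 5344 other spots, 277 of 11806 genes were higher in the embryonic myosin spots (2.35%) and 255 lower (2.16%), with a median of -0.09. The largest ratios apart from the rule genes were those of *Mymx* (3.56), *Myl4* (3.45), *Tnnt2* (3.39), *Myog* (3.19), *Tnni1* (3.16), the potassium channel subunit *Kcne1l* (3.15), the muscle immunoglobulin protein *Igfn1* (2.67) and *Casq2* (2.62). Apart from *Kcne1l*, which was not classed here, these are known as muscle genes. The lowest ratios were those of the coagulation factor *F5* (-3.62), *Matn3* (-3.45), *Fetub* (-3.29), *Col2a1* (-3.25), *Matn1* (-3.18), *Scrg1* (-3.12), *Ucma* (-3.07), *Cnmd* (-3.02), the pannexin *Panx3* (-3.02) and haptoglobin (*Hp*, -2.79), of which *Matn3*, *Col2a1*, *Matn1*, *Scrg1*, *Ucma* and *Cnmd* belong to cartilage. *F5* (-3.62 (-8.93 to -1.13)) and *Fetub* (-3.29 (-8.61 to -0.80)) rest on 1 UMI each in the embryonic myosin spots and *Matn1* (-3.18 (-6.23 to -1.31)) on 2, and in the sections *F5* stood at -1.93 and -1.07 and *Fetub* at -1.15 and -1.37, with 3 counts set in place of 0. All 5 chondrocyte markers, 4 of 5 osteoblast markers and 4 of 4 osteoclast markers were lower. These counts compare mostly Nf1Postn with mostly control tissue: of the embryonic myosin spots 224 were Nf1Postn, and of the other spots 3268 were control. Within the control tissue, where 1.09% of all genes were lower, the counts were 5 of 5, 4 of 5 and 2 of 4. Within the Nf1Postn tissue, where 0.505% of all genes were lower, they were 2 of 5, 2 of 5 and 0 of 3.

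Adult fiber genes were also higher than in the other spots of both genotypes together. Of 13 adult fast fiber genes 11 were higher (median, 1.53), of 11 all-fiber genes 8 (median, 1.66), of 9 energy genes 5, and of 8 repair genes 5, with *Csrp3* at 2.40 and *Flnc* at 1.84. Of all genes in this comparison 2.35% were higher. The counts differed between the tissues. Within the control tissue 517 genes were higher (4.58%) and 123 lower (1.09%), among them 13 of 13 fast fiber, 11 of 11 all-fiber, 9 of 9 energy and 5 of 7 repair genes as higher. Within the Nf1Postn tissue 14 were higher (0.164%) and 43 lower (0.505%), and of these 4 lists no gene was counted as higher (fast fiber median, 0.34). In the Nf1Postn tissue the other spots held 26753 CPM of adult myosin, against 5903 CPM in the control tissue. The 14 higher genes included, besides the 2 rule genes, *Myl4* (2.49 (2.34 to 2.64)), *Tnnt2* (2.41 (2.17 to 2.66)), *Tnni1* (2.01 (1.78 to 2.23)), *Myog* (2.00 (1.68 to 2.30)), *Casq2* (1.76 (1.42 to 2.10)) and *Dlk1* (1.28 (1.07 to 1.49)), and all 6 were counted in the control tissue too.

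To set the embryonic myosin spots beside tissue with as much adult myosin, the 148 of them between the quartiles of their adult myosin level (16770 to 43186 CPM) were compared with 823 spots of the same band that were not among the 296. This comparison was chosen after the data had been seen. Adult myosin then stood at 28679 and 27557 CPM, and of 5001 genes 5 were higher (0.1%) and 7 lower (0.14%), with a median of 0.00. Besides *Myh8* and *Myh3*, the higher genes were *Tnni1* (1.62 (1.39 to 1.85); 1.02 and 1.70 in sections 1 and 2), *Casq2* (1.61 (1.19 to 2.02); 1.13 and 1.72) and *Myog* (1.41 (1.02 to 1.79); 1.5 and 1.48). *Myl4* (1.91 (1.73 to 2.09)) and *Tnnt2* (1.83 (1.57 to 2.09)) had larger ratios and missed the count because section 1 reached only 0.73 and 0.86. Of the 429 genes higher than in mature muscle, 4 were among these 5. These include *Myh8* and *Myh3*, which differ here by the choice of spots. Fibroblast and macrophage markers had no gene counted (medians, 0.33 and 0.18), nor had fast fiber (median, -0.08), energy (median, -0.06), growth factor or matrix genes, and *Igf1* stood at 0.15 and *Sfrp2* at -0.24.

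The 7 lower genes were the ligand *Wnt5b* (-1.77), *Cyyr1* (-1.77), *Arrdc2* (-1.40), the histone gene *H3c4* (-1.35), the receptor *Fgfr3* (-1.21), the vascular zinc finger gene *Vezf1* (-1.05) and the globin *Hbb-bt* (-1.02). None of them belongs to a list used here. A second comparison chosen after the data had been seen took the 908 spots that touched an embryonic myosin spot. Of 5319 genes 7 were higher (0.132%) and 0 lower (0%), namely *Myh3*, *Myh8*, *Myl4* (1.74 (1.60 to 1.87)), *Myog* (1.39 (1.10 to 1.67)), *Tnni1* (1.28 (1.11 to 1.45)), *Kcne1l* (1.24 (0.80 to 1.68)) and *Casq2* (1.10 (0.78 to 1.42)), with a median of -0.04 over all genes. *Tnni1*, *Casq2* and *Myog* were thus higher against the other spots and against both narrower sets of spots. Both sets held somewhat more of the skeletal markers, of which none was counted. Chondrocyte and osteoblast markers had medians of -0.62 and -0.64 in the matched band and -0.67 and -0.60 against adjacent spots.

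**Figure D4:**
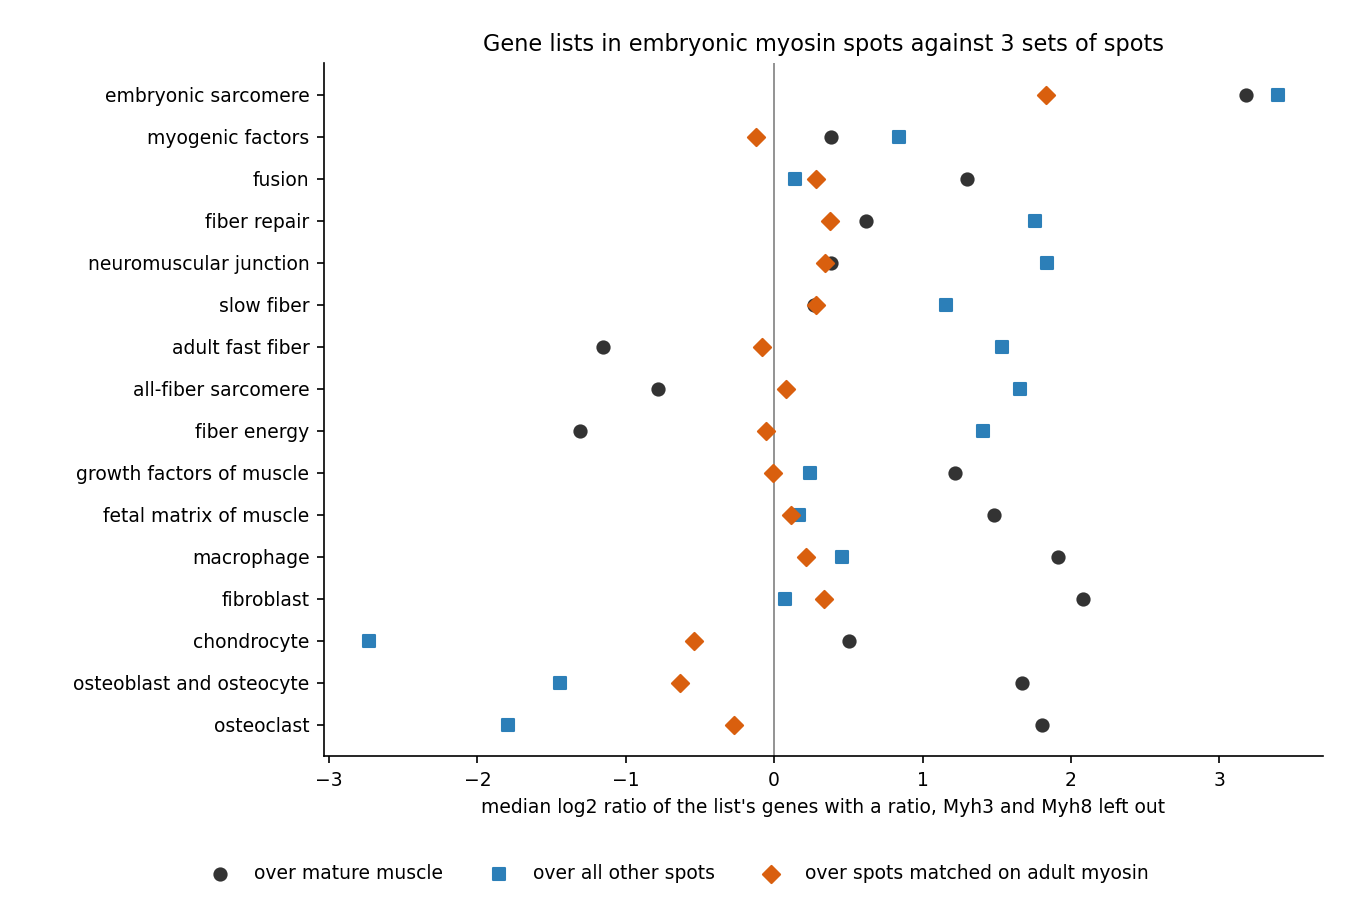
Median log2 ratio of pooled CPM over the genes of 16 lists (rule genes left out) in embryonic myosin spots against mature muscle (black), all other spots (blue) and spots of the same adult myosin band (orange). Embryonic sarcomere genes lie to the right in all 3 (3.18, 3.39 and 1.83), while the fast fiber (-0.08), fibroblast (0.33) and macrophage (0.21) lists lie near 0 in the matched band.

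The 200 bases upstream of the start sites of these 3 genes are shown because the genes stood higher in every one of the narrow comparisons. They were read from GRCm39 (mm39) on the plus strand, before the starts of the GENCODE canonical transcripts at 135727140 for *Tnni1*, 101993234 for *Casq2* and 134217707 for *Myog*. These starts differ from the gene starts printed above, which are those of the deposited tables, and that of *Tnni1* lies within the gene as deposited. The windows are chr1:135726940-135727139 for *Tnni1*, chr3:101993034-101993233 for *Casq2* and chr1:134217507-134217706 for *Myog*, shown 5′ to 3′ with each E-box (CANNTG, the letters read by myogenic factors of the myogenin family) in capitals.
Tnni1: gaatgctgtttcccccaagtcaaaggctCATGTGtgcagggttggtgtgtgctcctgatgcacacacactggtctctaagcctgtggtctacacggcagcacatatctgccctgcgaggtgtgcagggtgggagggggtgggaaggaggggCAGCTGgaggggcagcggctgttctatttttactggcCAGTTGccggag
Casq2: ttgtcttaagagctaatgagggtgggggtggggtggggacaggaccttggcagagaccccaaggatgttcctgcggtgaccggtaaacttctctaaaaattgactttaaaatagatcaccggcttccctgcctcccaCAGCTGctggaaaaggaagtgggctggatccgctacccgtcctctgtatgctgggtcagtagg
Myog: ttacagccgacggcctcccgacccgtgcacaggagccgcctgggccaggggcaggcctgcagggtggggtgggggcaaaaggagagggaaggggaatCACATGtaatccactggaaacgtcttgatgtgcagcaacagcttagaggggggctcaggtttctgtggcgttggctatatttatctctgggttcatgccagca
*Tnni1* had 3 E-boxes, at -172, -49 and -12 from the transcript start, *Casq2* had 1, at -63, and *Myog* had 1, at -103. The letters CANNTG occurred in 56.1% of 21757 promoter windows of this length and in 9 of the 10 genes searched (*Myh3*, *Myh8*, *Tnnt2*, *Myl4*, *Casq2*, *Tnni1*, *Myog*, *Mymk*, *Mymx* and *Chrng*). The form CAGCTG, a subset of CANNTG that reads the same on both strands, occurred in 9.76% of all windows and in 3 of the 10, *Tnni1*, *Casq2* and *Chrng*. The MEF2 letters (CTA and TAG parted by exactly 4 letters, each A or T) were found in 0.404% of windows and in 0 of the 10, and TATAAA in 9.57% and in 2, *Myh3* and *Myh8*. Both strands were searched, and a match describes letters, not a bound site.

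Within the embryonic myosin spots, adult myosin content divided the tissue they lay in. Cut at 21395 and 34217 CPM into 3 tertiles, the lowest (99 spots) stood against the highest (99 spots) with 76 of 683 genes higher (11.1%) and 97 lower (14.2%), and a median of 0.33. Higher in the lowest tertile were *Sfrp2* (3.21), osteocalcin (*Bglap*, 2.97), the matrilin *Matn4* (2.47), the osteoclast phosphatase *Acp5* (2.41), the protease *Mmp9* (2.14) and *Col2a1* (2.07). All 10 fast fiber genes that passed, all 9 all-fiber genes and all 8 energy genes were lower, among them *Pvalb* (-2.40), *Mybpc2* (-2.33) and *Ckm* (-2.31). *Myoz3* (-2.47), which is in none of these lists, was lower too. Adult fibers make these genes along with the myosins of the split, so their lower level describes the split and supports nothing. The developmental genes also stood higher in the lowest tertile at library totals, where the median over all genes was already 0.33. Other scaling factors were not applied to the tertiles. *Tnnt2* differed by 0.57 (0.21 to 0.93), *Myl4* by 0.53 (0.31 to 0.75) and *Myog*, below the count minimum here, by 0.64 (0.15 to 1.13). *Tnni1* had the largest ratio of them (1.11 (0.82 to 1.41)). For *Tnnt2* the ratio was 0.11 with section 1 alone.

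Between genotypes, few genes of the embryonic myosin spots differed. Of 1091 genes with enough UMIs, 7 were higher in the Nf1Postn spots (0.642%) and 9 lower (0.825%), with a median of -0.05. The muscle genes among them were *Tnni1*, lower in Nf1Postn (-1.21 (-1.45 to -0.96)), and *Cox7a1* (1.20 (0.80 to 1.61)), the muscle subunit of cytochrome c oxidase, and *Apobec2* (1.24 (0.87 to 1.63)), a muscle-enriched deaminase family member, both higher. *Dlk1* stood at 74.5 and 87.6 CPM in the control spots of sections 1 and 2 and 304 and 219 CPM in the Nf1Postn spots, a log2 ratio of 1.5 (1.02 to 2.01). *Sfrp2* had the largest difference (-2.67 (-2.98 to -2.37)): it stood at 1043 and 686 CPM in the control spots of sections 1 and 2 and 134 and 109 CPM in the Nf1Postn spots. In section 2 alone, where the control spots were better measured, *Sfrp2* differed by -2.66, *Tnni1* by -1.11 and *Dlk1* by 1.32. In section 1 the highest control spot held 3528 CPM of *Tnni1*, and the ratio without that spot was not computed.

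Among the other 11 genes counted, higher were the globins *Hbb-bs* (1.87) and *Hba-a2* (1.5), myelin basic protein (*Mbp*, 1.49) and *Tppp3* (1.25), and lower were the cartilage collagens *Col2a1* (-1.53) and *Col11a1* (-1.29), *Mfap4* (-1.40), *Bst2* (-1.28), *Cpxm2* (-1.22), *Gas6* (-1.12) and *Ptn* (-1.04). With factors by trimmed mean of M values or DESeq2 size factors *Col2a1* was no longer counted, although its ratio stayed at -1.45 and -1.46. The summed erythroid markers stood at 59.6 and 369.9 CPM in the control spots of sections 1 and 2 and 1155 and 1076 CPM in the Nf1Postn spots among embryonic myosin spots, and at 151 and 254 CPM in the control spots of sections 1 and 2 and 1556 and 1624 CPM in the Nf1Postn spots among other spots, so they stood higher in Nf1Postn tissue of both kinds. Summed chondrocyte markers stood at 3978 and 5979.6 CPM in the control spots of sections 1 and 2 and 1816 and 2086 CPM in the Nf1Postn spots, and *Col2a1* was the most abundant. The Nf1Postn spots held more adult myosin, 38195 against 27307 CPM, and less of the fibroblast markers, 23726 against 31851 CPM. Between the tertiles by adult myosin *Cox7a1* stood at -2.28, *Apobec2* at -2.03, *Dlk1* at -0.93, *Tnni1* at 1.11, *Col2a1* at 2.07 and *Sfrp2* at 3.21, lowest over highest. Each of these 6 signs is the opposite of that between genotypes. The erythroid markers went the other way, with 3 of 3 ratios above 0 both between tertiles (median, 0.83) and between genotypes (median, 1.87). Tertile ratios of the remaining counted genes are not given here. The part of muscle content, blood, nerve and cartilage in these ratios was not tested.

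Besides *Tnni1*, no developmental gene was counted between genotypes, and the ratios of *Tnnt2*, *Myl4* and *Myog* over both sections were below 0. By pooled level *Tnnt2* differed by -0.50 (-0.96 and -0.36 in the sections), while *Myl4* and *Myog* turned in section 2. *Myl4* differed by -0.19 (-1.50 and 0.15) and *Myog* by -0.11 (-1.45 and 0.29). In section 1 the median of the 14 control spots was 0 for all of *Tnnt2*, *Myl4* and *Myog*, and the highest values in a spot were 1764, 7643 and 1529 CPM. The section 1 ratios of these genes thus lean on few control spots and settle no direction. Of the adult myosins, *Myh4* differed by 1.26 (0.60 and 1.41), *Myh2* by -0.40 and *Myh1* by -0.26 (0.70 and -0.45), and none of 13 fast fiber genes was counted (median, 0.42). Only 0.642% of all genes were higher and 0.825% lower, so a list without a counted gene says little here. Of 11 neuromuscular junction genes none reached 50 UMIs a section, with 8 ratios above 0 (median, 0.38) and *Chrng* at -1.66. Of 8 fiber repair genes 4 passed, none was counted and 5 ratios were above 0 (median, 0.30). *Nes* differed by -0.84 and *Igf1* by -0.96 with enough UMIs and without reaching 2-fold in both sections. Because the rule sums *Myh3* and *Myh8*, their ratios of -0.91 and 0.44 are given as a description.

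**Figure D5:**
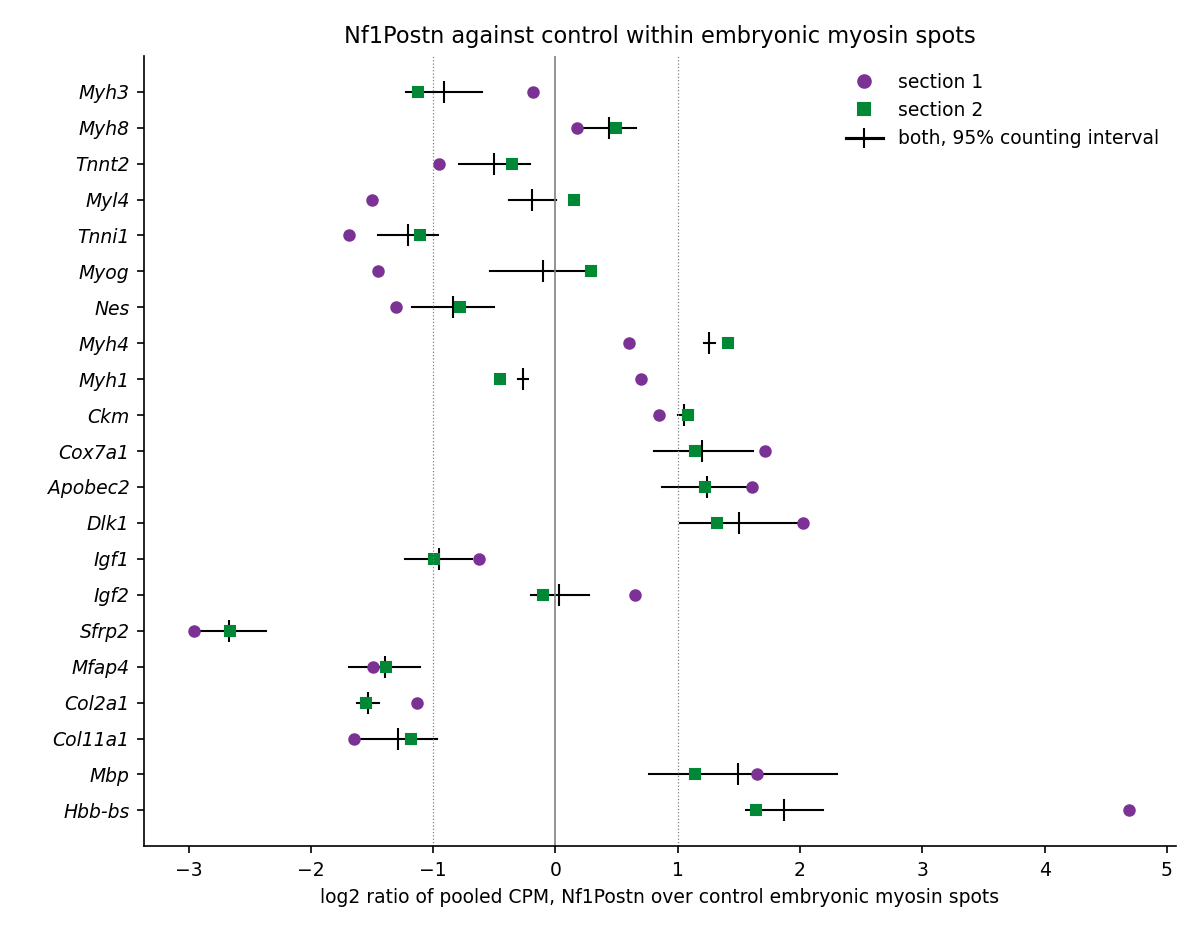
Log2 ratio of pooled CPM, Nf1Postn over control embryonic myosin spots, for 21 genes in section 1 (circles), section 2 (squares) and both (tick with 95% counting interval); dotted lines mark 2-fold. *Sfrp2*, *Tnni1*, *Mfap4*, *Col2a1* and *Col11a1* lie left of the line and *Dlk1*, *Cox7a1*, *Apobec2*, *Mbp* and *Hbb-bs* right of it in both sections, while *Myl4*, *Myog*, *Igf2* and *Myh1* fall on opposite sides in the 2 sections.

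The targeted gene was itself weakly measured. *Nf1* (chr11:79230519-79472439) stood at 29.8 and 77.9 CPM in the control spots of sections 1 and 2 and 28.3 and 48.3 CPM in the Nf1Postn spots, from 2, 32, 8 and 36 UMIs, and at 88.5 and 79.3 CPM in the control spots of sections 1 and 2 and 74.7 and 54 CPM in the Nf1Postn spots among the other spots. The Nf1Postn value was lower in section 2 and close to the control value in section 1, and the gene did not reach the count minimum (-0.73 over both). Whether the probe lies in the deleted part of the gene is not given in the sources used here. The *Postn* promoter does not target muscle fibers, but the null allele is carried by all cells of the Nf1Postn mouse, muscle fibers included. With the probe position unknown and so few UMIs, this level does not check the genotype labels. None of the 8 genes of the list of *Nf1* and ERK feedback genes (*Nf1*, *Spry1*, *Spry2*, *Spry4*, *Dusp6*, *Etv4*, *Etv5*, *Spred1*) had enough UMIs to be compared between genotypes, and 3 of 8 ratios were above 0.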

How the data were processed

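A control and an Nf1Postn callus in each section were measured by Visium with mouse probes for fixed tissue. The submitters' processing notes name Space Ranger 1.3.0 and mm39, and the study's methods name Partek Flow. For both sections the authors deposited raw, unscaled UMI counts of each gene in each spot, handled here like estimated counts because 10 genes of each section have values that are not whole (10689 entries in all), and also a genotype label per spot and spot positions. 19430 genes were used. A row without a gene name, with 11.6 UMIs in section 1 and 6.8 in section 2, was left out. Spots under 1000 UMIs were left out.

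Counts were summed over the spots of a group and divided by the group's UMIs (CPM). Genes needed 50 UMIs over both groups in each section, and a group at 0 took 3 counts, which makes the ratio a bound. Named genes are those of the lists and, in each comparison, the 10 largest ratios each way. The embryonic myosin spots and the gene lists were chosen with earlier results of these data known. Patches used the 6 grid neighbors. Promoters came from GRCm39 with the GENCODE annotation. Python 3.11.15 with numpy 2.4.6, pandas 2.3.3 and scipy 1.17.1 was used, and R 4.3.3 with edgeR 4.0.16 and DESeq2 1.42.0 for scaling factors alone. The calculation of the pooled ratios was checked on simulated Poisson counts, drawn from a common profile with known changes. The simulated spots did not vary beyond counting error, so the check does not cover spots as uneven as the real ones.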

Additional observations from a re-analysis of the deposited data

Results flagged for a closer look

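Among the 460 spots under 1000 UMIs, which the comparisons do not use, *Myh3* and *Myh8* together reached 62.0 CPM, from 19 UMIs in 17 spots. The level was 74.2 CPM in the 328 Nf1Postn spots and 22.5 CPM in the 128 control spots of this kind, from 16 and 2 UMIs, while the kept spots of sections 1 and 2 held 123 and 167 CPM in the Nf1Postn and 14.4 and 68.4 CPM in the control tissue. The Nf1Postn spots under 1000 UMIs thus stood below the kept Nf1Postn spots, and above the kept control spots. 1 embryonic myosin spot carried no genotype label and stood at 679 CPM of the pair, which was a single UMI in 1473.5.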

How the results depend on the processing

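The share of embryonic myosin spots stayed higher in Nf1Postn than in control tissue under all 9 alternatives, at ratios of 1.71 to 7.41. Of 454 values of named genes under alternatives, 439 kept their sign. Those that changed it were *Myh1* against mature muscle (5 of 18), *Myog* and *Myl4* between genotypes (4 of 15 each), *Nf1* between genotypes (1 of 15) and *Mymk* against mature muscle (1 of 18), which was -0.034 without section 2 and 2.29 without section 1. The main ratio was at least 2-fold only for *Mymk* among these. The share of members among neighbors was 14.5% for the top 2.5% of spots, 31.7% for the top 10% and 29.9% with at least 3 UMIs. Against mature muscle, the genes higher numbered 250 for the top 2.5% and 891 for the top 10%, and with *Myh3* alone 715 were higher and 167 lower. The band of matched adult myosin gave 5 and 7, and Nf1Postn spots alone 70 lower. The mean of log2(CPM + 1) over spots gave 777 and 196, a minimum of 1 UMI 2121 and 225, 1.5-fold 660 and 245, TMM 144 and 371, and DESeq2 size factors 162 and 345. Against other spots, *Myh3* alone gave 143 higher and 121 lower, adjacent spots 7 and 0, control spots alone 517 and 123, Nf1Postn spots alone 14 and 43, the log2 mean 153 higher, 1 UMI 3938 higher, and 1.5-fold 678 and 902. Between genotypes, the top 2.5% gave 2 higher and 2 lower, *Myh3* alone 24 lower, thinning to 1000 UMIs 14 higher, the lowest tertile by adult myosin 3 and 2, the log2 mean 11 and 123, 1 UMI 53 and 178, and 1.5-fold 27 and 38.

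Using 1 section alone raised the counts by construction, since a ratio then had to pass in 1 section: 890 to 1611 higher and 219 to 242 lower against mature muscle, 383 to 857 and 834 to 1030 against other spots, and 70 to 74 and 49 to 82 between genotypes. The *Tnnt2* ratio between tertiles was 1.20 with at least 3 UMIs and 0.11 to 0.48 with 1 section. Other causes were not tested. No paired analysis was possible because the sections were treated as cuts of the same calluses, as the design text describes them and against their labels, which leaves no pairs of animals to test. The ratios within each section are given as values. With 1 or 2 UMIs in 145 of 296 spots, many single spots were chosen on few molecules, and genes under 50 UMIs a section, such as *Mymk*, *Chrng*, *Pax7* and *Nf1*, were not measured well enough to compare.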

Other observations

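*Plagl1*, one of the leading genes against mature muscle, is imprinted, that is, expressed from 1 parental allele. A list of 16 imprinted genes was written down after this and other values had been seen, so its counts in the same comparison are a description and support nothing. Of the 13 in the tables, 7 had enough UMIs against mature muscle and 6 were at least 2-fold higher in the embryonic myosin spots in both sections, with 0 lower and a median log2 ratio of 1.81 beside 0.39 over all genes compared, of which 23.3% were higher. They were the zinc finger factor *Plagl1* (3.00), *Mest* (2.11), *Dlk1* (2.07), the cell cycle inhibitor *Cdkn1c* (1.81), the growth factor *Igf2* (1.52) and the insulin signaling adaptor *Grb10* (1.39). The seventh was the zinc finger gene *Peg3*, at 0.61. Against other spots, where 2.35% of all genes were higher and 2.16% lower, 1 of 12 was higher, *Dlk1* (1.93), and 1 lower, *Peg10* (-1.40). Within the matched band of adult myosin 0 of 9 were counted, with *Dlk1* at 0.87 and *Igf2* at 0.77. Of all genes there, 0.1% were higher and 0.14% lower. With factors by trimmed mean of M values or DESeq2 size factors, 4 of the 7 were counted against mature muscle, where fewer of all genes were higher too. Fibroblast markers also stood higher than in mature muscle, and their part in these ratios was not tested.

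Denervation and atrophy genes gave no count against mature muscle (0 of 2 that passed, where 23.3% of all genes were higher and 5.87% lower) at library totals, and 1 of the 2 was lower with factors by trimmed mean of M values or DESeq2 size factors. With these factors more of all genes were lower too. Against other spots 1 of 6 was higher, where 2.35% of all genes were. Tendon markers stood at 2727 and 1908 CPM in the control spots of sections 1 and 2 and 939.7 and 1552 CPM in the Nf1Postn spots in the embryonic myosin spots, against 510.0 and 734 CPM in the Nf1Postn mature muscle spots, with *Thbs4* the most abundant, and 1 of 2 that passed was higher than in mature muscle at library totals and 0 of 2 with either set of factors. Schwann cell markers stood at 358 and 302 CPM in the control spots of sections 1 and 2 and 802 and 369 CPM in the Nf1Postn spots, and granulocyte markers at 104 and 77.9 CPM in the control spots of sections 1 and 2 and 851 and 125 CPM in the Nf1Postn spots, highest in the Nf1Postn spots of section 1.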
